A study of Mus musculus with 21 samples.

Results

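CEBPB(V285A), a mutant of the bZIP factor CEBPB with a changed amino acid in its DNA-binding domain, was compared with wild-type CREB1 on DNA whose synthesised strand carried 5-hydroxymethylcytosine (5hmC) in place of cytosine (C). The comparison used 4 of the 21 protein binding microarrays of the study, 2 for CEBPB(V285A) 5hmC and 2 for CREB1 5hmC, and 65126 of the 65535 listed sequences of 8 bases (8-mers). The other 409 8-mers lay on no probe. The arrays were chosen by the protein and the cytosine form that their labels gave. In this assay a tagged protein is bound to an array of double-stranded probes, and the fluorescence of a spot reports how much protein it holds. The 4 arrays shared everything the labels describe except the protein: mouse DNA-binding domains with an N-terminal GST tag, expressed in a cell-free kit, on probes modified on 1 strand only. The printed strand kept ordinary cytosine. Full-length proteins, partner proteins and chromatin were therefore not part of the measurement. The arrays of the same proteins on C (CEBPB(V285A) C and CREB1 C, 2 each) served to ask whether a difference was particular to 5hmC. The series title concerns how similar the mutant's binding is to that of CREB1.

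bZIP proteins bind DNA as dimers, each monomer laying a basic helix in the major groove over its own part of the site. CREB1 is known for the cAMP response element (CRE), a palindrome of inverted TGAC motifs, and CEBPB for the C/EBP palindrome, built from GCAA motifs. PAR bZIP factors, a related subfamily, favour the palindrome built from GTAA motifs. Vertebrate genomes carry 5hmC, an oxidation product of 5-methylcytosine, mostly in CpG dinucleotides.

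The 8-mers on which the comparison turned are shown first, written 5′ to 3′ on the synthesised strand, so that every C in a name was 5hmC on these arrays. The first 6 join a 5′ and a 3′ recognition motif of the CRE, C/EBP or PAR kind across a central CpG or TpG step, and the last holds a CRE motif followed by CpG. In such combinations a motif is named by its outer bases alone: TGA or TCA for CRE, TTG or CAA for C/EBP, TTA or TAA for PAR. With a TpG centre the 5′ side is thus TGAT, TTGT or TTAT, not TGAC, TTGC or TTAC. With a CpA centre the 3′ side is ATCA, ACAA or ATAA, not GTCA, GCAA or GTAA.
PAR and C/EBP, TpG centre: TTATGCAA
PAR and PAR, TpG centre: TTATGTAA
PAR palindrome, CpG centre: TTACGTAA
C/EBP palindrome, CpG centre: TTGCGCAA
CRE palindrome, CpG centre: TGACGTCA
CRE and C/EBP composite, TpG centre: TGATGCAA
5′ CRE motif with its CpG inside a longer 8-mer: GATGACGC

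Each 8-mer was read from several probes of 35 variable bases in different flanks. For 3 of them, 1 probe is printed to show that context, with the 8-mer in capitals. It was the probe in the middle of the order by mean signal over the 4 arrays.
TTATGCAA probe: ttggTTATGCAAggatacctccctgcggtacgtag
TTACGTAA probe: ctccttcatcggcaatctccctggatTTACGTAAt
TGATGCAA probe: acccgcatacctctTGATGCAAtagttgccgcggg
The TTATGCAA probe was at 24.7 and 13.1 times the array's median signal with CEBPB(V285A), against 1.38 and 1.33 times with CREB1. The TTACGTAA probe was at 7.50 and 12.0 times with CEBPB(V285A), against 3.03 and 3.35 times with CREB1. The TGATGCAA probe was at 7.08 and 7.52 times with CEBPB(V285A), against 22.3 and 28.9 times with CREB1. Relative to the array's median, the third probe was high with both proteins but higher with CREB1, and the others were higher with the mutant. In intensity units the TTACGTAA probe was brighter with CREB1, at 4258 and 5177, against 2213 and 3515 with CEBPB(V285A). The TTATGCAA probe was brighter with CEBPB(V285A) in these units too, at 7296 and 3823, against 1939.5 and 2050 with CREB1. The printed TTATGCAA probe was low for CREB1 among its kind: the median over 18 probes was 21.1 and 14.3 times with CEBPB(V285A), against 4.39 and 6.84 times with CREB1. Over its 18 probes, which differ in flanks, in the place of the site and in other sites they carry, TTATGCAA ranged between 1.14 and 209 times the median on CEBPB(V285A) replicate 1. What set that range was not tested.

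The arrays of the 2 proteins differed in brightness. The median spot was at 295 and 292 intensity units with CEBPB(V285A), against 1407 and 1544.5 with CREB1, which was 2.61 and 2.01 times the local background against 5.29 and 5.85 times. The scanner's ceiling was reached by 1 and 0 spots with CEBPB(V285A) and by 10 and 17 spots with CREB1, of which 4 and 6 carried TGATGCAA. The authors' Z-scores, the values used below, have a median of 0 in every array, and their highest values were 228 and 125 with CEBPB(V285A), against 141 and 171 with CREB1. They give preference within an array and not affinity. Across 65126 8-mers, which share probes and bases, replicates correlated at r = 0.838 for CEBPB(V285A) and 0.959 for CREB1, and arrays of different proteins at 0.515 to 0.548. Over the 552 8-mers above 10, Z-scores of CEBPB(V285A) replicate 1 summed to 1.42 times those of replicate 2. The deposited array names of the 2 groups also carried different numbers, whose meaning was not given in the sources used here, so protein and that number cannot be told apart. The labels do not say whether a replicate was a new preparation of protein. The p-values measure only the spread between replicate arrays, pooled over all groups of the study, and this spread may be technical.

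On 5hmC, CEBPB(V285A) gave its highest Z-scores to 8-mers with a PAR motif, and CREB1 to the CRE and C/EBP composite and to 8-mers that held a CRE motif with its CpG or a C/EBP motif. At an adjusted p under 0.05, 2620 8-mers were called different (limma, 4.02% of those tested). Of these, 1214 were higher in CEBPB(V285A) (1.86%) and 1406 were lower (2.16%). Both group means were under 5 in 57.4% of the higher and 72.6% of the lower calls, so most calls lay among weakly bound 8-mers. The split moved with the scale, to 539 higher and 1213 lower after quantile normalization and to 2194 higher and 1527 lower with Z-scores recomputed from the spots. The count was 1085 without CREB1 5hmC replicate 1, 905 without CREB1 5hmC replicate 2 and 1655 without CEBPB(V285A) 5hmC replicate 2.

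**Figure D1:**
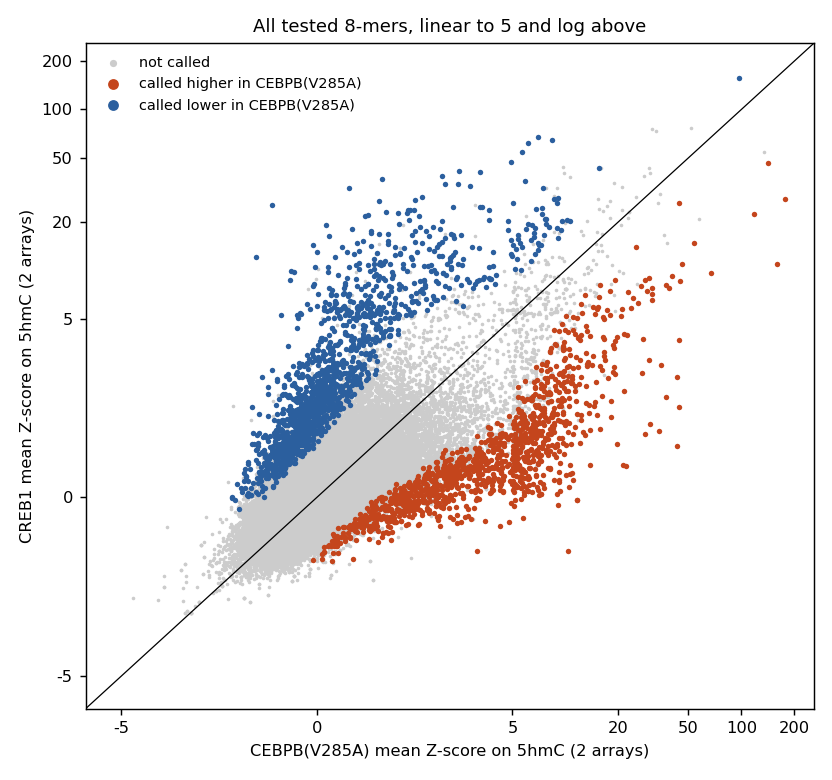
Mean Z-score of each of 65126 8-mers on 5hmC with CEBPB(V285A) (horizontal axis) and CREB1 (vertical axis), 2 arrays each, on axes that are linear up to 5 and logarithmic above. Red points were called higher in CEBPB(V285A) (1214), blue points lower (1406), grey points were not called, and the line marks equal values. The called 8-mers form arms on both sides of the line, and the top blue point, at 97.0 and 156, is the CRE and C/EBP composite.

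The largest rises were at 8-mers whose 5′ motif was of the PAR kind. TTATGCAA, a PAR motif joined to a C/EBP motif, had Z-scores of 228 and 125 in the CEBPB(V285A) arrays, against 20.4 and 34.7 in the CREB1 arrays. TTATGTAA, with the outer bases of PAR motifs on both sides and no C to modify, had 205 and 112 with CEBPB(V285A), against 10.6 and 11.1 with CREB1. In both 8-mers the lower CEBPB(V285A) array lay far above the higher CREB1 array, though arrays did not overlap at 52.5% of all 8-mers. The differences were 149 ± 19.2 (SE, limma adjusted p 4.0e-05) and 147 ± 18.0 (adjusted p 1.8e-05). Neither was called when only the 4 arrays were fitted (limma adjusted p 0.081 and 0.13). TTATGCAA and TTATGTAA were the 2 highest 8-mers for CEBPB(V285A) and ranked 41 and 231 for CREB1. Without CEBPB(V285A) replicate 1 the TTATGCAA difference was 97.8, still called.

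With CpG at the centre, the PAR palindrome TTACGTAA had 131 and 106 with CEBPB(V285A), against 20.3 and 24.2 with CREB1 (difference 95.9 ± 7.47, limma adjusted p 8.8e-08). TTACGCAA, the PAR and C/EBP pairing, had 194 and 88.2 with CEBPB(V285A), against 48.3 and 44.2 with CREB1 (95.1 ± 17.3, adjusted p 0.0016). Both were higher in the mutant, but the TTACGCAA difference was 42.0 without CEBPB(V285A) replicate 1 and 148 without replicate 2. It was not called after quantile normalization. TGACGTAA, a CRE motif joined to a PAR motif, had 205 and 63.8 with CEBPB(V285A), against 52.6 and 56.8 with CREB1, and was not called (79.4 ± 22.9, adjusted p 0.054). The CEBPB(V285A) arrays did not agree there: the difference was 9.07 without replicate 1 and 150 without replicate 2.

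Of the 9 combinations with a C/EBP motif on the 5′ side, 5 were called higher in the mutant and 4 were not called. Over all 8-mers 1.86% were higher. The C/EBP palindrome TTGCGCAA, the site CEBPB is known for, had 76.9 and 57.7 with CEBPB(V285A), against 8.85 and 10.4 with CREB1 (57.7 ± 12.2, limma adjusted p 0.0067). TTGTGTAA, with no modifiable C, had 27.1 and 27.7 with CEBPB(V285A), against 3.37 and 3.58 with CREB1 (23.9 ± 2.10, adjusted p 3.4e-07). CEBPB(V285A) ranked these 8-mers 7 and 43, and CREB1 ranked them 278 and 1433. TTGCGTAA, TTGCATAA and TTGCACAA were the other 3 called, higher by 39.5, 34.6 and 10.1. With a PAR or CRE motif on the 5′ side and a CpA centre, TTACATAA, TGACATAA and TTACACAA were called higher by 41.7, 41.6 and 10.8. The calls of TTGCGCAA, TTGCGTAA and TTACATAA were lost without CREB1 replicate 1 or without CREB1 replicate 2, at differences of 48.1 to 67.3, 22.8 to 56.2 and 35.3 to 48.0 when any 1 array was left out. TTACACAA was called in 0 of the 4 fits without 1 array (9.06 to 12.5). TTGCACAA, higher by 10.1, was called in 5 of 15 alternative settings, and its difference was 5.98 without CEBPB(V285A) replicate 2. Without CEBPB(V285A) replicate 1, TTGCGTAA was higher by 22.8 and not called, and TGACATAA was higher by 24.7 and still called, against 39.5 and 41.6 with all arrays.

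Among the combinations with a 5′ CRE motif, only the composite TGATGCAA was called lower in the mutant, while TGATGTAA and TGACATAA were called higher. TGATGCAA, a CRE motif joined to a C/EBP motif, was the highest 8-mer for CREB1, with 110 and 84.0 in the CEBPB(V285A) arrays, against 141 and 171 in the CREB1 arrays (difference -59.0 ± 9.97, limma adjusted p 0.00078). The mutant ranked it 6, so both proteins had it near the top. This call was lost on all 5 other scales and without CREB1 replicate 2 (-44.4), and the sign turned with recomputed Z-scores (4.88, adjusted p 0.096). On the probes, its median signal was at 9.73 and 8.49 times the array median with CEBPB(V285A), against 22.3 and 28.9 times with CREB1. TGACGCAA had 42.0 and 60.7 with CEBPB(V285A), against 70.1 and 82.8 with CREB1, and was not called (-25.1 ± 11.6, adjusted p 0.29). Of its 17 probes, 4 and 5 were at the scanner's ceiling in the CREB1 arrays and 0 in either CEBPB(V285A) array. TGATGTAA, the CRE and PAR pairing at TpG, was higher in the mutant, at 49.8 and 38.5, against 28.3 and 23.8 with CREB1 (18.1 ± 4.75, adjusted p 0.032), but only 5 of 15 alternative settings called it.

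The CRE palindrome itself lay well below the highest 8-mers of both proteins. TGACGTCA, the textbook CREB1 site, had 10.8 and 6.48 with CEBPB(V285A), against 19.1 and 38.5 with CREB1, and was not called (-20.2 ± 13.9, adjusted p 0.54). It ranked 351 for CEBPB(V285A) and 35 for CREB1. TTACGTCA (6.56 and 6.05 with CEBPB(V285A), 2.98 and 3.49 with CREB1) and TTGCGTCA (4.53 and 1.04 with CEBPB(V285A), 1.24 and 0.982 with CREB1) were not called either. With the 3′ motif of the CRE kind, none of the 9 fixed 8-mers was called in either direction. With a 3′ PAR motif, 8 of the 9 were called higher, and with a 3′ C/EBP motif, 5 were higher and 1 lower. Over all 27 combinations, 13 were higher, 1 was lower and 13 were not called, against 1.86% higher and 2.16% lower over all 8-mers. The lower one was TGATGCAA, whose call was lost on the other scales.

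**Figure D2:**
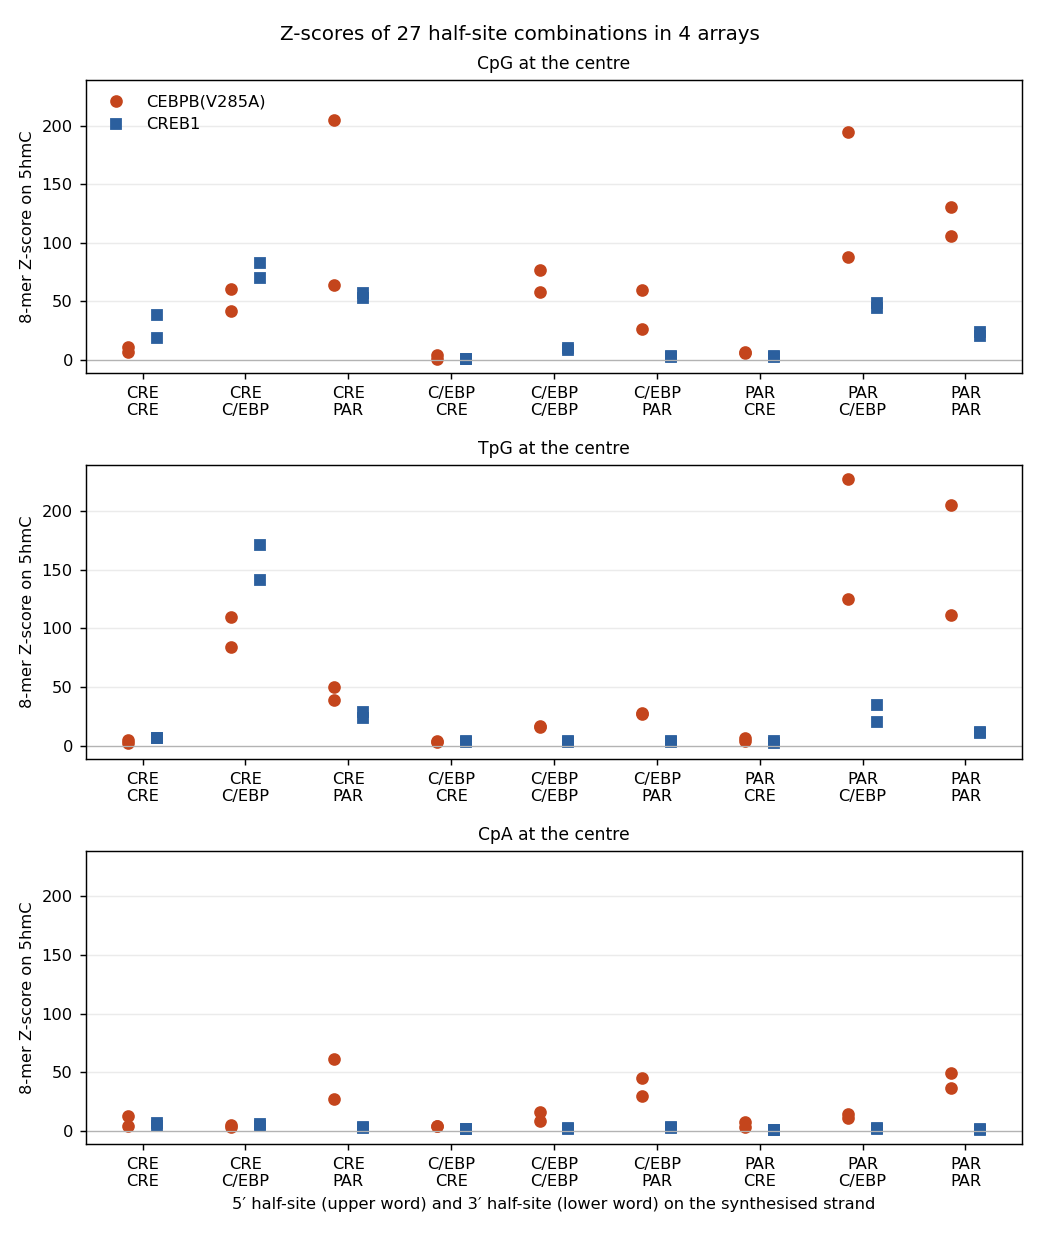
Deposited Z-score on 5hmC (vertical axis) of the 27 combinations of a 5′ and a 3′ motif with a CpG, TpG or CpA centre, 1 panel for each centre. Red circles are the 2 CEBPB(V285A) arrays and blue squares the 2 CREB1 arrays. The red circles reach 228 at the PAR and C/EBP pairing with TpG, the blue squares reach 171 at the CRE and C/EBP pairing with TpG, and pairings ending in a CRE motif reach at most 38.5 in the 4 arrays.

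Outside the fixed combinations, most of the named 8-mers called lower held the CRE motif followed by CpG. GATGACGC had 8.49 and 5.42 with CEBPB(V285A), against 65.7 and 68.6 with CREB1 (-60.2 ± 7.86, limma adjusted p 4.6e-05). It ranked 539 for the mutant and 5 for CREB1. GTGACGCA had 4.63 and 2.62 with CEBPB(V285A), against 44.8 and 38.1 with CREB1, and TGGTGACG had 4.55 and 2.64 with CEBPB(V285A), against 32.4 and 36.5 with CREB1. These 3 8-mers were picked as large falls among those whose arrays do not overlap, as 52.5% of all 8-mers did not, so their separation is no separate result. Their CEBPB(V285A) values were below 10. TTATGACG (-30.0), ATGACGGT (-25.8) and TAGTGACG (-25.5) fell likewise, and TGGTGACG, ATGACGGT and TAGTGACG were called under all 15 alternative settings. ACGCAATA, which holds a C/EBP motif and no CRE motif, was the third highest 8-mer for CREB1. It had 29.0 and 32.7 with CEBPB(V285A), against 68.1 and 83.1 with CREB1, a difference of -44.7 that was not called (adjusted p 0.065). TGCAATAC, which holds a C/EBP motif read on the synthesised strand and no CRE motif, was lower by 24.9, at 8.88 and 6.10 with CEBPB(V285A), against 30.4 and 34.3 with CREB1. GTAACTGT and GTAATCGT, which start with the PAR motif, were called higher by 39.5 and 35.9. GTAACTGT had 56.4 and 31.4 with CEBPB(V285A), against 4.68 and 4.12 with CREB1. GTAATCGT had 60.2 and 28.8 with CEBPB(V285A), against 9.10 and 8.06 with CREB1, and its difference of 35.9 was 20.3 without CEBPB(V285A) replicate 1.

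The same contrast ran through whole families of 8-mers. The median difference over all 8-mers tested was 0.0214. TGACGNNN, the 64 8-mers that begin with a CRE motif and its CpG, had 39 members lower and 0 higher in CEBPB(V285A), against 2.16% lower over all 8-mers. Its median Z-score was 0.944 and 0.818 in the CEBPB(V285A) arrays, against 6.26 and 6.48 in the CREB1 arrays, and the median difference was -5.11. Its reverse complements NNNCGTCA, the same duplexes with 5hmC on the other strand, had 0 of 63 called and medians of -0.0964 and 0.0576 with CEBPB(V285A), against 0.575 and 0.481 with CREB1. The CREB1 signal was present with TGACG on the synthesised strand and close to 0 with it on the printed strand. Other steps after the motif gave fewer calls: 8 lower of 64 for TGACANNN, 5 for TGACTNNN and 1 for TGACCNNN, each with 1 member higher. NNNTGTCA, the reverse complements of TGACANNN, had 7 of 64 lower and 0 higher. The median difference was -0.965 for NNNTGTCA and -0.937 for TGACANNN, so the 2 orientations were alike at that step. Without CREB1 replicate 1 and replicate 2 the TGACANNN count was 4 and 2 and the TGACTNNN count 0 and 1. Without CEBPB(V285A) replicate 1 and replicate 2 they were 5 and 4 for TGACANNN and 2 and 0 for TGACTNNN. The TGACGNNN count was 23 without CREB1 replicate 2, and 11 after each array was divided by a high percentile of its Z-scores.

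PAR motifs at the 3′ end gave the opposite picture. NNNTGTAA had 21 of 64 higher and 0 lower, with medians of 5.46 and 3.73 in the CEBPB(V285A) arrays, against 2.65 and 2.68 in the CREB1 arrays (median difference 1.84). NNNCGTAA had 9 of 63 higher, NNNGGTAA 8 of 64 and NNNAGTAA 4 of 64, and none of the 3 lists had a member lower. Over all 8-mers 1.86% were higher. These 4 lists end in the same 4 bases, GTAA, and differ in the base before them. Without CEBPB(V285A) replicate 1, 5 of NNNCGTAA and 3 of NNNGGTAA were called higher. Without CREB1 replicate 2 the counts were 4 and 1, with 2 for NNNAGTAA, and without CREB1 replicate 1 they were 6 and 1. On the other scales the NNNTGTAA count ran between 7 and 31, and 0 members were lower. C/EBP motifs did not lean one way: NNNCGCAA had 2 higher and 2 lower of 64, and NNNTGCAA had 4 higher and 8 lower, with a median difference of -0.349 that turned to 0.221 with recomputed Z-scores. Without CREB1 replicate 1, 1 of NNNTGCAA was higher and 6 lower. Without CREB1 replicate 2, 3 were higher and 3 lower, and without CEBPB(V285A) replicate 1 and replicate 2 the counts were 2 and 8, and 4 and 4. In NNNTGCAA the top member was TTATGCAA for CEBPB(V285A) and TGATGCAA for CREB1.

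**Figure D3:**
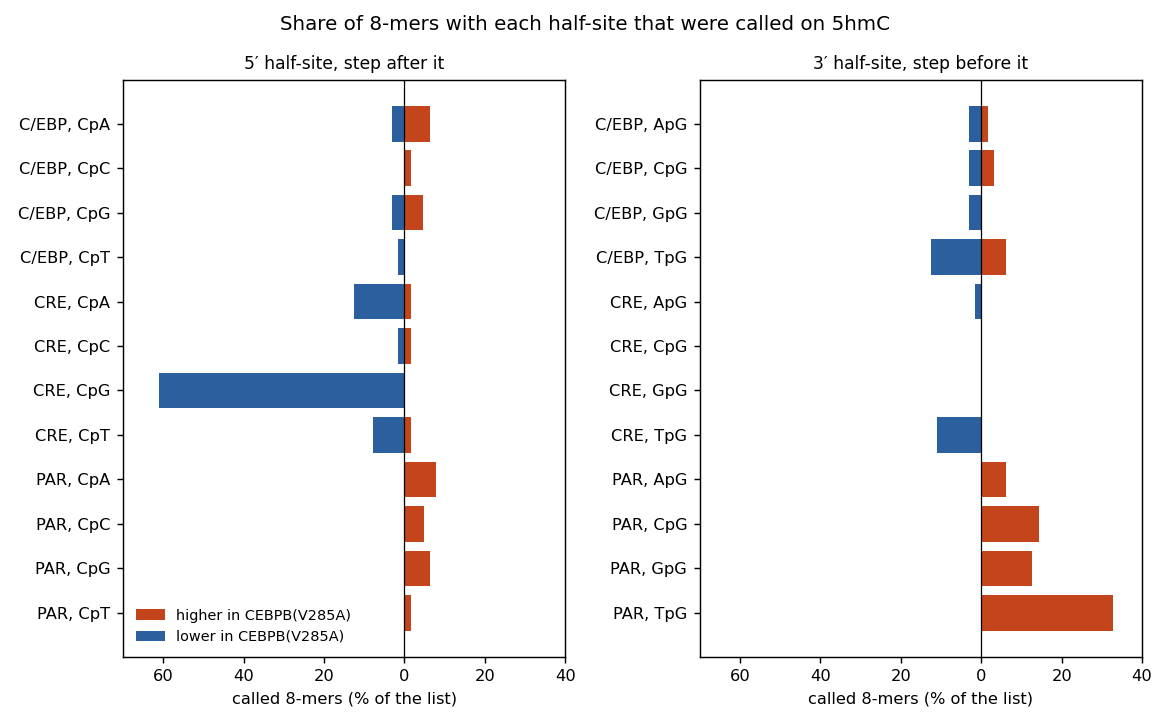
Share of the 8-mers with each recognition motif that were called on 5hmC, in percent of the list (62 to 64 8-mers a list), for motifs at the 5′ end with the step that follows (left panel) and at the 3′ end with the step that precedes (right panel). Red bars to the right are 8-mers higher in CEBPB(V285A) and blue bars to the left are lower ones. The longest blue bar is the 5′ CRE motif with CpG (60.9%) and the longest red bar the 3′ PAR motif with TpG (32.8%).

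Motifs of other kinds were counted too, against 1.86% higher and 2.16% lower over all 8-mers. Of the 48 8-mers with the E-box CACGTG, the site of basic helix-loop-helix proteins, 22 were lower in the mutant and 0 higher. Their medians were 0.294 and -0.0576 with CEBPB(V285A), against 2.26 and 2.53 with CREB1, and the count was 13 without CREB1 replicate 1, 14 without CEBPB(V285A) replicate 2 and 9 without CREB1 replicate 2. After division by a high percentile 0 were called. 8-mers of A and T only, which carry no modifiable C on either strand, were higher in 41 of 255 and lower in 1, with medians of 2.12 and 1.77 with CEBPB(V285A), against 0.977 and 1.01 with CREB1. Without CREB1 replicate 1 or without CREB1 replicate 2, 20 of them were higher, and 26 without CEBPB(V285A) replicate 1, and on the other scales 4 to 55 were. Of the 30 8-mers of the C/EBP-ATF composite, 9 were lower and 0 higher, and their median difference of -0.365 turned to 0.442 with recomputed Z-scores. The AP-1 heptamer gave 0 called of 16, and the ETS core, which no bZIP protein is known to bind directly, gave 2 higher of 95 (2.11%), a share near that over all 8-mers, and 0 higher when any 1 array was left out.

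Modifiable bases were counted as well. Among 8-mers with 0 C on the synthesised strand, 4.98% were higher in CEBPB(V285A) and 1.95% lower, and among those with 2 C, 1.27% were higher and 2.35% lower. Of the 3365 8-mers with 2 CpGs, 11 were higher (0.327%) and 194 lower (5.77%), and of the 40263 without a CpG, 947 were higher (2.35%) and 605 lower. These shares overlap with the motif families, since the CRE motif with its CpG holds C and the TpG-centred PAR motif holds none, and their separate parts were not tested.

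The 100 highest 8-mers of each protein shared 27. The PAR bases GTAA were in 48 of the 100 for CEBPB(V285A), against 4 for CREB1. The CRE bases TGAC were in 3 for CEBPB(V285A), against 50 for CREB1, and the C/EBP bases GCAA in 29 against 35. Each of GTAA, TGAC and GCAA was in 1.96% of all 8-mers tested. In the opposite orientation GTCA was in 0 of the 100 for CEBPB(V285A) and 1 for CREB1. In the same order, TTGC was in 3 and 1, and TTAC in 6 and 2. Of the 1214 8-mers called higher, 302 held GTAA (24.9%), against 1 of the 1406 called lower and 1.96% of all 8-mers. Other bases were frequent there too: ATAA was in 260 higher and 1 lower, and TTAT in 193 higher and 9 lower. TTAC was in 88 higher and 11 lower. ATAA and TTAT were each in 1.95% of all 8-mers, and TTAC in 1.96%. Of the lower ones, 142 held TGACG (10.1%), against 0.393% of all 8-mers, and 0 of the higher ones did.

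Single-base changes of the composite TGATGCAA, with positions counted from 1 at its 5′ end, showed where the proteins parted. G2T, which turns the CRE motif into a PAR motif and gives TTATGCAA, took the mean Z-score to 177 with CEBPB(V285A), against 97.0 for the unchanged 8-mer. With CREB1 the same change left 27.6, against 156 for the unchanged 8-mer. One base thus went with a higher value in one protein and a much lower one in the other. C6T left 44.1 with CEBPB(V285A) and 26.1 with CREB1, and T4C, which makes the central CpG, left 51.4 with CEBPB(V285A) and 76.4 with CREB1. The other 21 changes left at most 20.7 with CEBPB(V285A) and 19.2 with CREB1. Of the 24 changed 8-mers, 4 were called higher in the mutant and 6 lower, against 1.86% and 2.16% over all 8-mers. 5 of the lower ones changed the last 2 bases, namely A7G, A7T, A8C, A8G and A8T, and T4G was the other. A8T was lower by 11.4 (limma adjusted p 2.8e-06), at 3.45 and 2.78 with CEBPB(V285A), against 12.0 and 17.0 with CREB1. Of the 24 changes of TTATGCAA, 9 were called higher and 1 lower, namely T2G, which gives the composite.

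**Figure D4:**
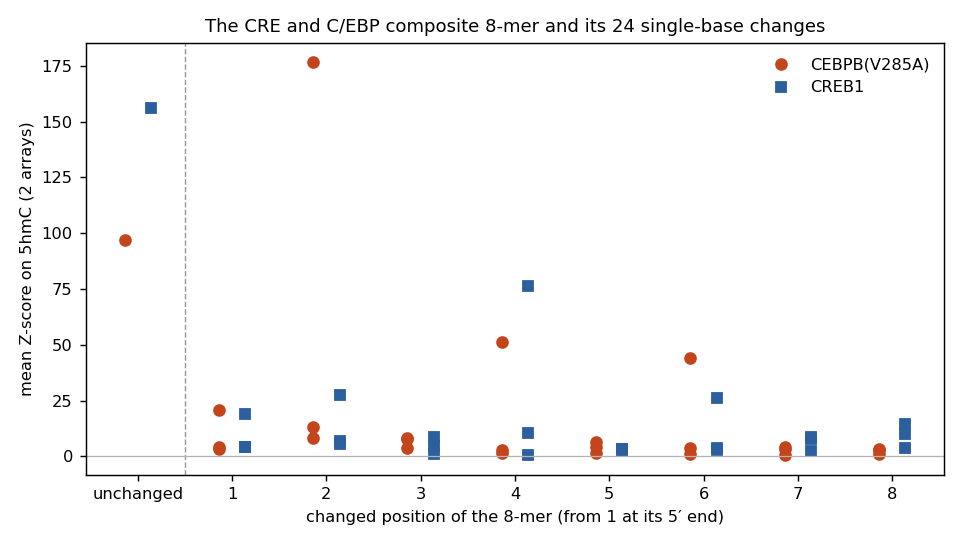
Mean Z-score on 5hmC of the CRE and C/EBP composite 8-mer, unchanged (far left) and with each of its 24 single-base changes, placed by the changed position. Red circles are CEBPB(V285A) and blue squares CREB1, means of 2 arrays. At position 2 one change stands at 177 for CEBPB(V285A) and 27.6 for CREB1, while at positions 3, 5, 7 and 8 no value exceeds 15.

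Because only 1 strand was modified, an 8-mer and its reverse complement are the same duplex with 5hmC on opposite strands, and their difference within an array gives a strand asymmetry. On 5hmC both proteins had the same preferred orientation at TGATGCAA and at TTATGTAA. TGATGCAA exceeded TTGCATCA by 106 and 80.0 with CEBPB(V285A), against 140 and 169 with CREB1. TTATGTAA exceeded TTACATAA by 156 and 74.8 with CEBPB(V285A), against 8.80 and 10.1 with CREB1. In TTATGTAA the synthesised strand has no C, and in its reverse complement it has 1. On C, where both strands carry ordinary cytosine, the sign was the opposite with CEBPB(V285A), at -27.8 and -24.7, against -0.137 and -0.658 with CREB1. TGATGCAA exceeded TTGCATCA on C by 24.9 and 33.0 with CEBPB(V285A), against -0.751 and 1.52 with CREB1. Asymmetry was therefore not limited to 5hmC, as TTACGCAA over TTGCGTAA also showed on C, by 77.9 and 61.8 with CEBPB(V285A), against 5.77 and 6.23 with CREB1. Whether the asymmetry differed between 5hmC and C was not tested. TGACATAA exceeded TTATGTCA by 57.5 and 21.1 with CEBPB(V285A), against -1.69 and 0.806 with CREB1. On C the same pair differed by 27.4 and 24.3 with CEBPB(V285A), against 5.87 and 5.09 with CREB1, so an orientation was present there without 5hmC.

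The asymmetry was called to differ between the proteins in 958 of 32230 pairs (limma adjusted p under 0.05, 2.97%). The count was 502 without CREB1 replicate 1 and 416 without CREB1 replicate 2. On the asinh scale 9 pairs were called, and 0 of 25 named pairs were called on all 5 other scales. It was more towards TTATGCAA (114 ± 20.3, adjusted p 0.0016), TTATGTAA (106 ± 13.4, 3.6e-05), TGACATAA (39.7 ± 6.18, 0.00040) and TTGTGTAA (13.1 ± 2.08, 0.00049) in CEBPB(V285A), although for TTATGCAA and TTATGTAA the sign turned on the asinh scale and after normexp. Without CEBPB(V285A) replicate 1 these differences were 55.7 for TTATGCAA, 21.5 for TGACATAA and, with the sign set for TTACATAA over TTATGTAA, -65.4, and without replicate 2 the TTATGCAA value was 173. It was more towards GATGACGC (-59.6 ± 3.36, 5.8e-10), GTGACGCA (-37.6 ± 3.28, 2.5e-07) and TTATGACG (-31.8 ± 3.00, 7.8e-07) in CREB1. For strongly asymmetric pairs, the mean-variance trend of this fit gave implausible errors, since it depends on which 8-mer of a pair is written first. The TGATGCAA pair differed by -61.8 with an SE of 171 (adjusted p 0.93), but with adjusted p 1.2e-05 without the trend and 0.0068 with a trend on the mean of the pair. For TTACGCAA the adjusted p values were 0.76, 0.014 and 0.10, and for TGACGCAA 0.57, 0.041 and 0.42, in the same order. Without the trend 943 pairs were called, of which 926 were also called with it in the same direction.

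The same proteins on C were used to ask which of these differences changed between 5hmC and C. The scale of the Z-scores changed too. The high percentile used for division was 47.0 and 34.9 with CEBPB(V285A) on C, against 24.7 and 16.6 on 5hmC. With CREB1 it was 22.4 and 30.1 on C, against 20.4 and 25.4 on 5hmC. Which differences were particular to 5hmC, apart from this change of scale, was therefore not settled. The difference between the proteins was called to differ between 5hmC and C at 1424 8-mers (limma, 2.19%), 225 higher and 1199 lower on 5hmC. On the normexp scale the split was 414 higher and 731 lower, with recomputed Z-scores 248 and 663, and after division by a high percentile 8 and 20. On the asinh scale 73 were called. Without 1 array the count was 611 (CREB1 C replicate 1), 683 (CEBPB(V285A) C replicate 1), 828 (CREB1 5hmC replicate 1) and 655 (CREB1 5hmC replicate 2). Of the 23 named 8-mers called in this test, 1, CTATGACG, was called on all 5 other scales.

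The composite TGATGCAA was lower in the mutant on 5hmC on the deposited scale, a sign that turned with recomputed Z-scores (4.88), and higher in the mutant on C. On 5hmC it was at 110 and 84.0 with CEBPB(V285A), against 141 and 171 with CREB1. On C it was at 42.0 and 47.6 with CEBPB(V285A), against 1.69 and 4.10 with CREB1. The difference was -59.0 on 5hmC and 41.9 on C (interaction -101 ± 14.1, limma adjusted p 0.00020), and it was called on 2 of the 5 other scales. CREB1 thus had its highest 8-mer on 5hmC at a sequence to which it gave a low Z-score on C. The CRE palindrome TGACGTCA was high for both proteins on C, at 174 and 135 with CEBPB(V285A), against 213 and 177 with CREB1, and its difference was not called to change (20.2 ± 19.6, adjusted p 0.75).

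The PAR palindrome TTACGTAA had a smaller difference on 5hmC, 95.9 against 207 on C (interaction -112 ± 10.6, limma adjusted p 2.4e-06). On C it was at 251 and 232 with CEBPB(V285A), against 30.3 and 37.6 with CREB1. The call was lost on all 5 other scales, and the sign of that interaction turned after division by a high percentile, with recomputed Z-scores and after normexp. The TpG-centred PAR 8-mers ran the other way on the deposited scale: TTATGCAA differed by 149 on 5hmC and 29.7 on C (119 ± 27.2, adjusted p 0.019), and TTATGTAA by 147 on 5hmC and 35.7 on C (112 ± 25.4, adjusted p 0.018). For TTATGCAA the sign turned on the asinh scale and after normexp, and without CEBPB(V285A) 5hmC replicate 1 the interactions were 68.1 and 65.0. Neither was called when any 1 of the 4 CREB1 arrays on 5hmC or C was left out. TTACGTCA, the reverse complement of TGACGTAA, differed by 3.07 on 5hmC and 113 on C (-110 ± 16.5, adjusted p 0.00040). On 5hmC both proteins were low there. This call was also lost on all 5 other scales, though the direction was kept.

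**Figure D5:**
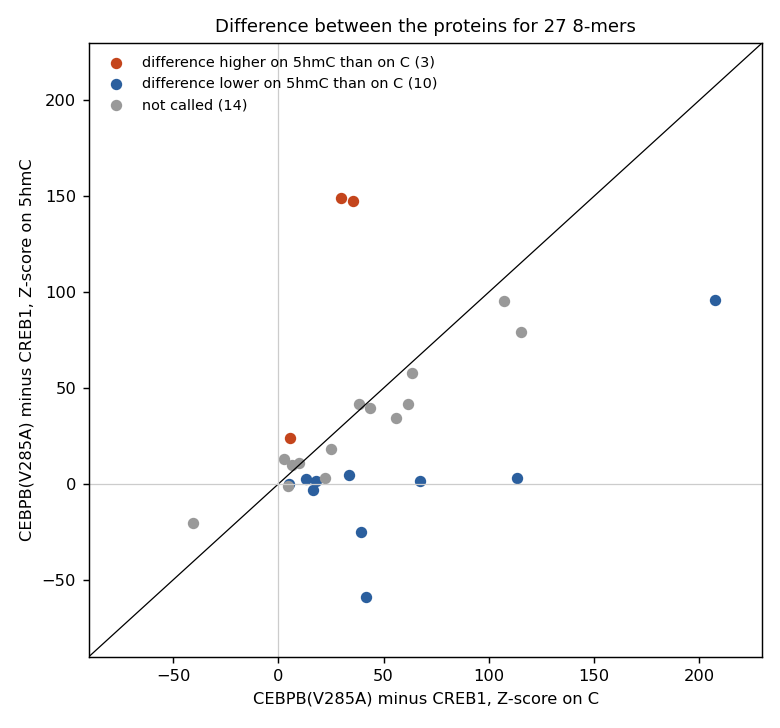
Difference in mean Z-score, CEBPB(V285A) minus CREB1, on C (horizontal axis) and on 5hmC (vertical axis) for the 27 combinations of motifs, with the line of equal differences. Red points had a difference called higher on 5hmC than on C (3), blue points lower (10), and grey points were not called (14). The red points at the top lie at 149 and 147 on 5hmC, and the lowest blue point, at -59.0 on 5hmC and 41.9 on C, is the CRE and C/EBP composite.

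In the families, TGACGNNN had 35 of 64 members with a lower difference on 5hmC than on C and 0 with a higher one, and NNNCGTCA 19 of 63 lower and 0 higher. Over all 8-mers 1.84% were lower and 0.345% higher. On C the medians of NNNCGTCA were 11.1 with CEBPB(V285A) and 5.81 with CREB1, whereas on 5hmC both were under 1. NNNTGTAA had 8 of 64 with a higher difference on 5hmC and 0 with a lower one. GCTGACGT shows the CRE case: it was at 0.328 and -0.271 with CEBPB(V285A), against 11.4 and 8.82 with CREB1 on 5hmC, and at 83.0 and 91.6 with CEBPB(V285A), against 30.8 and 39.6 with CREB1 on C. Both proteins were lower there on 5hmC, and the mutant lay near the median of all 8-mers.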

How the data were processed

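The 4 arrays were grouped by the protein and cytosine form in their titles. The matrix held a Z-score per array and 8-mer, a score made by the authors from spot signals by steps not given in the sources used here. Per the file headers, the deposited signal files held 2 medians for each of 40330 spots, an intensity within the spot and one around it, and the spot value used here had no background taken off. Spots are few for each 8-mer (a median of 17 probes, at most 41), and 2 arrays a group limit the precision. The matrix name of an 8-mer was its printed sequence read backwards (r = 0.788 to 0.844 with median probe intensity in the 4 arrays, at most 0.427 for other readings). Its complement was taken as the synthesised strand, which assumes that the printed sequence was the template and was not tested. If it were not, each 8-mer would trade places with its reverse complement.

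Z-scores were tested with limma 3.58.1 in R 4.3.3, with all 21 arrays in a single fit, 1 coefficient per group and a mean-variance trend, tested on simulated data. Tests were two-sided, adjusted by Benjamini-Hochberg over all 8-mers tested or all reverse-complement pairs, and called at 0.05. 8-mers, lists and tests were chosen with earlier results of these data known. Named 8-mers were 27 combinations of TGA, TTG or TTA with a centre and a 3′ motif, the 5 highest of each group, and up to 8 rises and 8 falls per comparison (called, arrays not overlapping, at least 8 probes, not sharing 7 bases in a row with one already taken). Alternatives were 5 other scales (asinh; division by a high percentile of the array; quantile normalization; Z-scores recomputed as deviation of median log2 intensity over the spread; normexp with offset 50), other sets of 8-mers or arrays, no trend, a replicate block and leaving out each array. Same-numbered arrays of the 2 proteins deviated together with a correlation of -0.0785 on 5hmC and -0.381 on C, so replicate numbers were not taken as pairs.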

Additional observations from a re-analysis of the deposited data

Results flagged for a closer look

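Groups of 2 arrays were too small to look for arrays that stand apart from their group. The values below are named 8-mers at which the difference between CEBPB(V285A) and CREB1 was called to differ between 5hmC and C by the interaction test in limma, each given as the difference on 5hmC minus that on C, in Z-score units.

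The difference was lower on 5hmC at TTACGTAA by -112, at TTACGTCA by -110 and at TGATGCAA by -101. It was also lower at TTGCGTCA (-65.6) and TGACGCAA (-64.2), and by less at TTACATCA (-28.6), TGATGTCA (-19.9), TTATGTCA (-16.2), TTGCATCA (-10.5) and TTGTGTCA (-4.82). The calls of TTACGTAA, TTACGTCA and TGACGCAA were lost on all 5 other scales. That of TGACGCAA was also lost with only the 8-mers on at least 8 probes and with the replicate block. 8-mers that hold the CRE motif with its CpG were lower as well: ATGACGCA by -85.4, CGATGACG by -67.6, GCTGACGT by -62.1, CGTGACGC by -46.1 and CTATGACG by -43.3.

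The difference was higher on 5hmC at TTATGCAA by 119 and at TTATGTAA by 112, and by less at ATAATAGT (25.4), GATGTAAT (22.9), TTGTGTAA (18.1), TTATATAA (17.0), AATGTAAC (13.3) and TGATATAA (11.4). All 8 of these have at most 1 C on the synthesised strand, but they were picked as the largest rises. Of all 225 8-mers called higher in this test, 87 had 0 C, 80 had 1 C and 34 had 2 C. Another 13 had 3 C, and 11 had 4 or more. Among the 65126 8-mers tested, 6560 had 0 C and 17496 had 1 C. ATAATAGT was at 48.3 and 21.6 with CEBPB(V285A), against 3.66 and 3.73 with CREB1 on 5hmC. It was at 9.68 and 8.62 with CEBPB(V285A), against 3.07 and 3.50 with CREB1 on C. Without CEBPB(V285A) 5hmC replicate 1 the value was 12.0 for ATAATAGT, 8.30 for TTATATAA, 7.62 for AATGTAAC, 6.20 for TGATATAA, 68.1 for TTATGCAA and 65.0 for TTATGTAA. Without CEBPB(V285A) 5hmC replicate 2 it was 38.7 for ATAATAGT and 25.6 for TTATATAA.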

How the results depend on the processing

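All 37 named 8-mers of the 5hmC comparison were recomputed under 15 settings: of the 23 called, 22 kept their direction in all and 13 were called on all 5 other scales. With the 4 arrays only, TTGTGTAA, TTACACAA, TGGTGACG, ATGACGGT and TAGTGACG kept their calls and the others of the 23 lost them. The number called was 1571 on the asinh scale, 190 after division by a high percentile of the array, 1719 with the 10 arrays of 5hmC only, 951 with 4 arrays only, and 905 to 2130 when 1 array was left out, its partner then assumed to vary like the other groups. For 5hmC against C it was 73 on the asinh scale, 28 after that division, 454 after quantile normalization, 911 with recomputed Z-scores, 2526 with the 8 arrays of both proteins only, and 611 to 1392 without 1 array. For strand asymmetry it was 9 on the asinh scale, 127 after that division, 588 with 4 arrays only, 827 with a trend on the mean of the pair (chosen after seeing the data), and 416 to 735 without 1 array. The replicate numbers were not shown to pair arrays. With the replicate block, 4186 8-mers were called on 5hmC, 2376 for 5hmC against C (2346 with the numbers of the CREB1 C arrays crossed, chosen after seeing the data) and 1455 pairs for asymmetry.

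Directions turned at TGATGCAA on 5hmC (4.88, recomputed) and, for 5hmC against C, at TTACGTAA (0.161 after division, 9.49 recomputed, 0.439 normexp), TTATGCAA (-1.98 asinh, -0.801 normexp), GATGTAAT (-0.390 asinh), TTATATAA (-0.547 asinh) and TTACGCAA (-65.3 to 40.9 without 1 array, the highest without CEBPB(V285A) 5hmC replicate 2). For asymmetry they turned at TGATGTAA (-1.31 asinh, -0.359 normexp), TTATGCAA (-0.701 asinh, -0.665 normexp) and TTACATAA (0.684 asinh, 0.255 normexp). With recomputed Z-scores the list medians of NNNTGCAA (0.221) and of the C/EBP-ATF composite (0.442) turned. The cause was not tested in any of these. Low signal over background in CEBPB(V285A) limits its weak 8-mers, and the scanner ceiling limits the highest CREB1 spots.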
